A study of Drosophila melanogaster with 3 samples.

Results

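The gene px, also called plexus (FBgn0003175), was 1 of the 13945 protein-coding genes on the 6 chromosome arms searched, and it was chosen by its peak, which ranked 3 among all thresholded peaks. It lies on 2R from 22494297 to 22562065 (dm6), on the minus strand, and is 67769 bp long. All peak summits inside the gene and within 10 kb on either side were taken, which gave 17 of the 8529 summits in the authors' thresholded list and 46 of the 30000 in the list called on the pooled replicates. The lists of replicates 1, 2 and 3 each held 30000 peaks, of which 42, 42 and 43 fell in the same stretch. Because the gene was selected on these peaks, their ranks and signals are given below as a description, with no test.

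The samples were whole Drosophila melanogaster embryos aged 0 to 16 h, males and females pooled, in which DNA bound by a tagged protein was precipitated and sequenced (ChIP-seq). All embryos came from 1 transgenic line that stably expresses CG18262 with GFP at its C-terminus, and an anti-GFP antibody was used. The labels number 3 biological replicates, which form 1 group, so no conditions were compared. Control alignments were not analysed here, nor was a line without the tag, so no background level stands beside the peaks of px.

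The px protein is a nuclear protein, and flies that lack it form extra veins in the wing. Wing veins are patterned after embryogenesis, in the imaginal disc and the pupal wing, by the EGF receptor, Notch, BMP and Hedgehog pathways, so the embryos held no wing vein tissue. Long genes of this kind often have several alternative start sites, each with its own promoter, which give transcripts that differ in their early exons. CG18262 has no named function in the annotation used here, and the labels class the experiment as transcription factor ChIP-seq.

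A peak in such data is a stretch where sequenced fragments pile up, and its summit is the base with the highest pile. The signal value is the authors' measure of peak strength, on a scale that was not stated, so it was ranked within each list and not compared between lists. The thresholded list was made with the irreproducible discovery rate (IDR), which scores how well the order of peaks repeats between lists. It held exactly the 8529 pooled peaks of highest signal and rests on the same reads as the replicate lists. Its summits are called thresholded summits here.

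Ensembl gives 6 px transcripts, which begin at 3 distinct start sites. The outermost start, at 22562065, serves px-RA, px-RE, px-RF and px-RG. The px-RB start, at 22546558, lies 15507 bp downstream of it. The px-RD start, at 22514099, lies a further 32459 bp downstream, which places it 47966 bp inside the gene. px-RD is the short form, with 3 exons over 17596 bp. It has 2832 coding bases against 5985 in px-RA, and 2774 of them (98.0%) are coding in px-RA too.

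The strongest px peak lay at the start of this short transcript. In the thresholded list it spanned 22513985 to 22514605, was 621 bp wide and had its summit at 22514304, 205 bp upstream of the px-RD start. Read against px-RA, the whole peak lay in intron 12, the longest intron of the gene. Read against px-RD, 115 bp of it reached into exon 1 of px-RD. The nearest start site of any protein-coding gene was that of px-RD.

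The summit of this peak was at 22514305 in replicate 1, 22514305 in replicate 2 and 22514302 in replicate 3. It was 206, 206 and 203 bp upstream of the px-RD start in replicates 1, 2 and 3, or 205 ± 1.73 bp (SD, n = 3). The 3 summits thus fell within 3 bp of each other. Among the 7571 thresholded summits that had a match within 100 bp in all 3 replicate lists, the replicate summits of 126 (1.66%) were no further apart, and the median range was 41 bp. The gene was chosen partly for the strength of this peak, and whether summits of strong peaks are placed more precisely was not tested.

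The peak ranked 3 in replicate 1, 2 in replicate 2 and 2 in replicate 3, or 2.33 ± 0.577 (SD, n = 3), among 30000 peaks in each list. Its signal value was 3561 in replicate 1, 3373 in replicate 2, 5161 in replicate 3 and 12079 in the thresholded list. These were 76.3, 77.9 and 90.8 times the median signal of replicate lists 1, 2 and 3. All 3 replicates therefore held it among their 3 strongest peaks.

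Its width was 546, 559 and 577 bp in replicates 1, 2 and 3, or 561 ± 15.6 bp (SD, n = 3). Ranked by width instead of signal, its mean rank over the replicates was 408. In the thresholded list it was preceded by a peak on 2L at 12011321, with a signal of 31193, and by the peak of Mkp3 on 3L at 19086807, with a signal of 12299. Mkp3 encodes a phosphatase of the MAP kinase pathway.

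**Figure D1:**
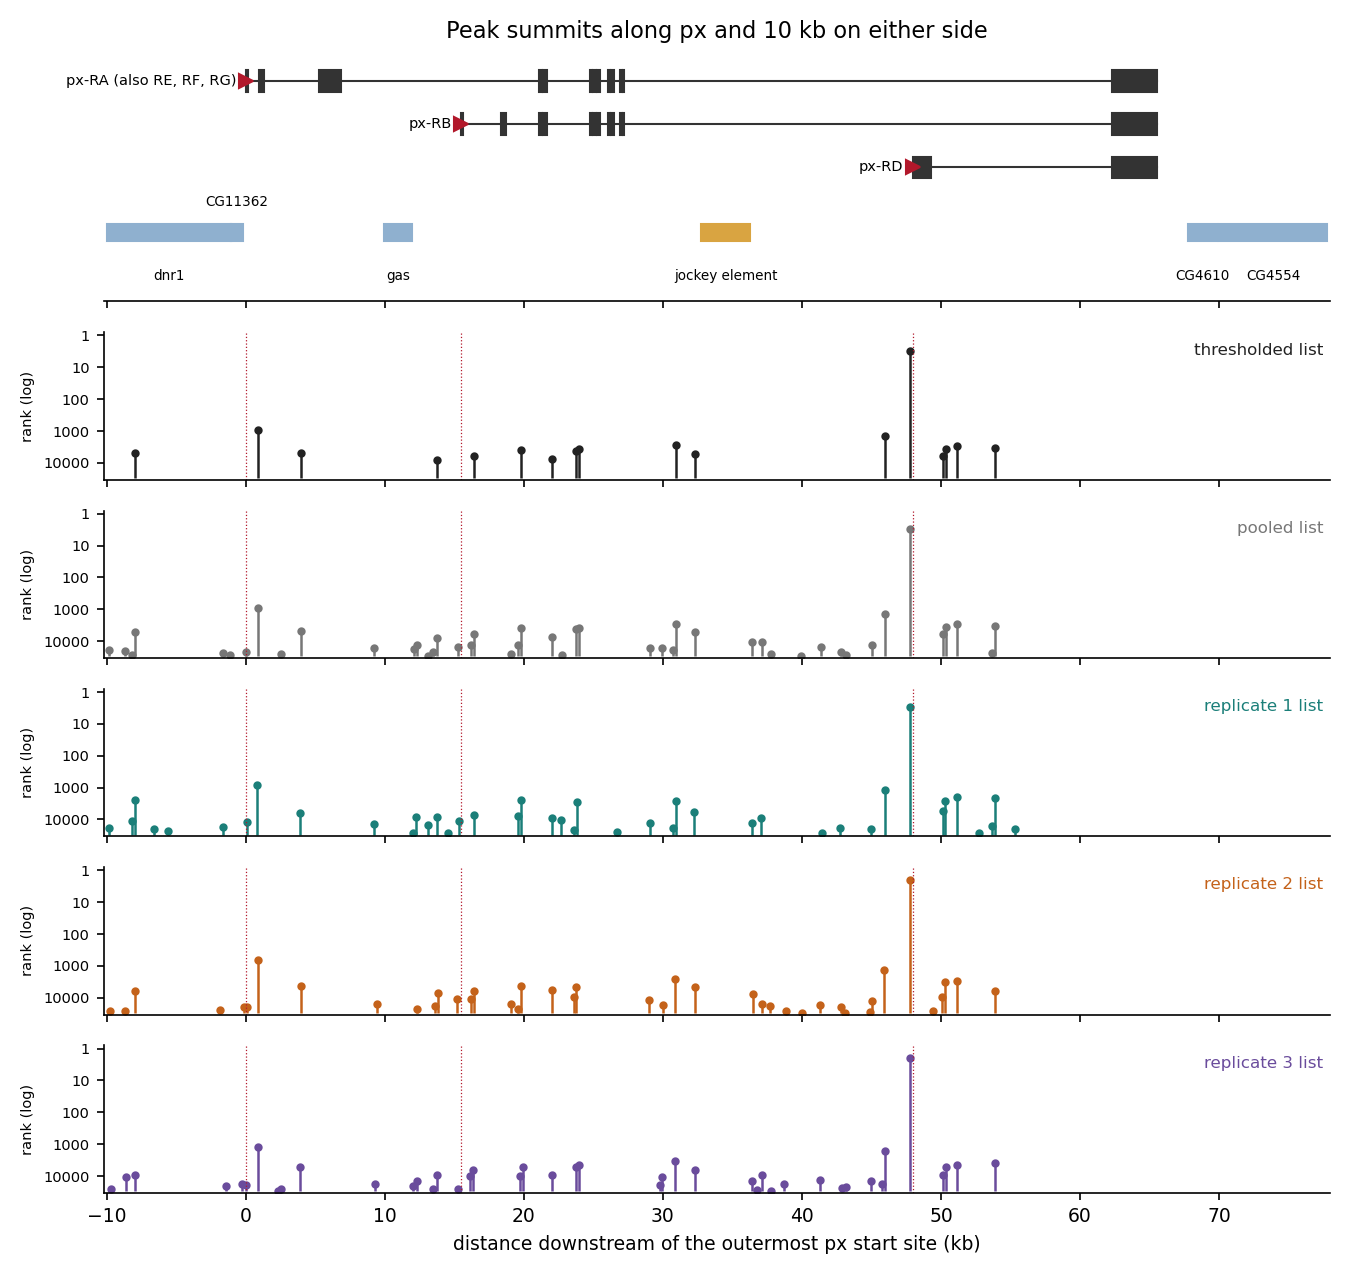
Transcripts of px, its neighbours and a jockey element above the summits of each peak list; the horizontal axis is the distance downstream of the outermost px start site (kb) and the vertical axes are the rank by signal (log axis, strongest at the top). Red arrowheads and dotted lines mark the start sites. The tallest stem in all 5 lists stands at the px-RD start, 47.966 kb into the gene, and the 3′ end of px carries no stem in the thresholded list.

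Along px, 16 thresholded summits lay inside the gene, and the peak at px-RD stood far above the others. The next 2 were at 22561229, which ranked 914, and at 22516118, which ranked 1401. The signal at px-RD was 7.44, 6.16 and 8.46 times that of the next px peak in replicates 1, 2 and 3, or 7.35 ± 1.15 times (SD, n = 3). It was the same px peak, near 22561229, that came next in every replicate.

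The summit at 22561229 lies in intron 1 of px-RA, 836 bp downstream of the outermost start. It ranked 838, 657 and 1245 in replicates 1, 2 and 3, with summits 12 bp apart. The summit at 22516118 lies 2019 bp upstream of the px-RD start and ranked 1223, 1376 and 1634, with summits 16 bp apart. The remaining 13 thresholded px summits ranked from 2806 to 8112, and the median rank of all 16 was 3849.

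Downstream of the px-RD start, within its first intron, 4 thresholded summits stood 2176 to 5911 bp from the start. The summit at 22510938 ranked 1988, 3061 and 4478 in replicates 1, 2 and 3. Its neighbours at 22511719 and 22511923, 204 bp apart, ranked 2574, 3319 and 5357 and 5591, 9544 and 9427. In all 3 replicates the first of this pair was thus the stronger. Intron 12 held the most thresholded summits of px by count, 8, but it is also the longest intron. Per kb it held 0.228, against 0.236 over all of px. Introns 1, 2, 3 and 5 held 1.29, 0.253, 0.211 and 0.965 per kb.

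In the upstream part of intron 12, beyond the jockey element, the summit at 22531149 ranked 2678, 2532 and 3438 in replicates 1, 2 and 3. The one at 22529773 ranked 5641, 4596 and 6257. The replicate ranks of these 2 summits did not overlap, and between the jockey element and the summit at 22516118 no summit passed the threshold.

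Nearer the outermost start, intron 5 held the pair at 22538135 and 22538336 and a weaker summit at 22540075, which ranked 8928, 5565 and 9338 in replicates 1, 2 and 3. Intron 3 held summits at 22542257, 22545675 and 22548320. The last of these ranked 8157, 6931 and 9533, and the one at 22545675 ranked 7483, 6120 and 6292. These ranges overlapped, but within each replicate the summit at 22545675 ranked above that at 22548320. The single summit of intron 2, at 22558115, ranked 6400, 4214 and 5325.

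A match within 100 bp in all 3 replicate lists was found for 14 of the 16 thresholded px summits (87.5%), close to the 88.8% of all thresholded summits. The 14 had replicate summits 3 to 110 bp apart, with a median of 39 bp, and 8 of them were within 40 bp. The summit at 22538135 was matched in replicate 3 only. There the thresholded list has a pair of summits, at 22538135 and 22538336, while the pairs of replicates 1 and 2 lie farther upstream in px, at 22538278 and 22538483 and at 22538283 and 22538482. The summit at 22542257 was matched in replicates 1 and 2. In replicate 3 a summit lay just beyond 100 bp on either side of it, at 22542153 with rank 5363 and at 22542360 with rank 10000.

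Over the 14 matched summits, ranks in replicates 1 and 2 had a Spearman correlation of 0.741, those in replicates 1 and 3 of 0.881 and those in replicates 2 and 3 of 0.851. These values describe summits of 1 gene that share their libraries, and no p-value is given. The widest span of ranks among the matched summits was at 22508188, with 2195, 6266 and 3826 in replicates 1, 2 and 3. Below the px-RD peak, ranges of replicate ranks overlapped between px summits. They were 657 to 1245 at 22561229 and 1223 to 1634 at 22516118, for example. Within each replicate, though, the summit at 22561229 ranked above that at 22516118.

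**Figure D2:**
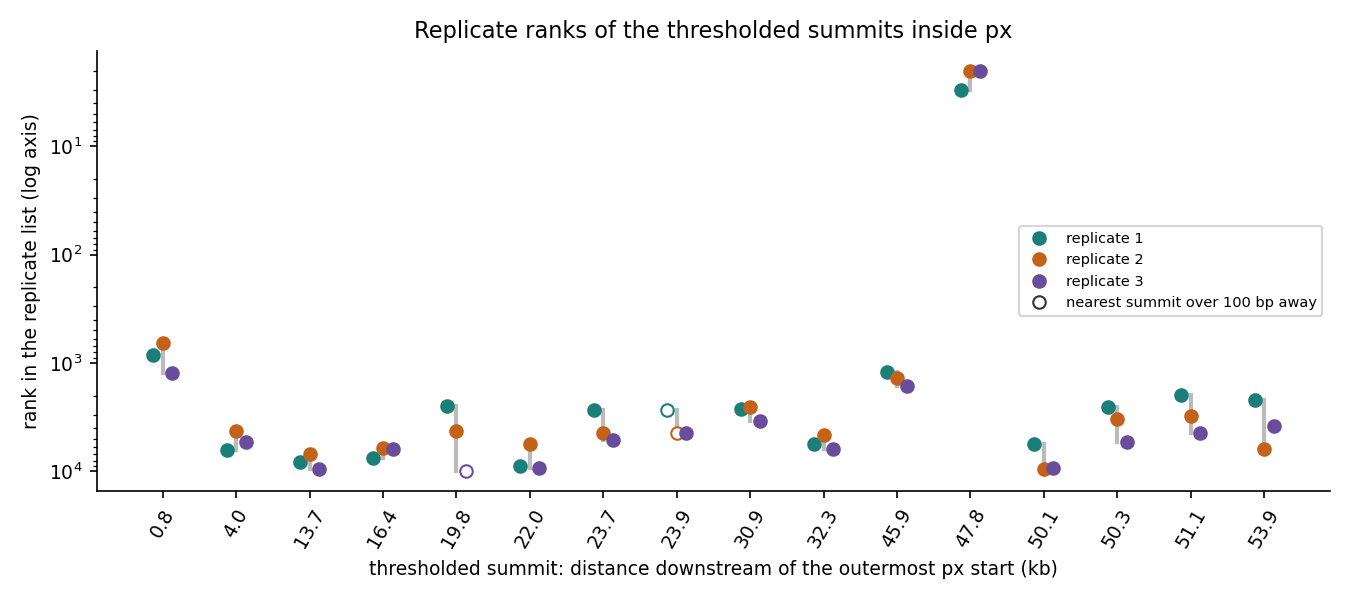
Rank by signal in each replicate list (log axis, strongest at the top) of the 16 thresholded summits inside px, placed by their distance downstream of the outermost start site (kb); colours are replicates, grey bars span their range, and open circles are nearest summits over 100 bp away. The summit nearest the px-RD start ranked 2 or 3 in the replicates, and no other px summit ranked above 657.

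Of the 3 px start sites, 1 had a thresholded summit within 500 bp, that of px-RD. In all protein-coding genes 4811 of 19607 start sites (24.5%) had such a summit, and 3728 of 13945 genes (26.7%) had it at any start. The count at px depends on the window. Within 200 bp no px start had a summit, since the px-RD summit lies 205 bp away, and within 1000 bp all 3 had one.

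At the outermost start, weak summits lay close to the start itself. They were 1 bp downstream of it in the pooled list, at rank 21715, and 89 bp downstream, 92 bp downstream and 1 bp upstream in replicates 1, 2 and 3, at ranks 12156, 19045 and 18500. All of these fell below the threshold. The strongest summit within 1000 bp of this start was the one 836 bp downstream.

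At the px-RB start the nearest summit was 216 bp upstream and ranked 14774 in the pooled list. In replicates 1, 2 and 3 it was 190, 292 and 285 bp upstream and ranked 10923, 11328 and 25584. The nearest thresholded summit was 883 bp downstream and ranked 6083. The ranks at px-RB and at the outermost start overlapped between the replicates, whereas those at px-RD, 2 and 3, lay far from both.

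Of the 839 promoter-bound genes whose start sites lie over 1000 bp apart, 324 (38.6%) had no thresholded summit within 500 bp of their outermost start, as px did. A gene is called promoter-bound here when a thresholded summit lies within 500 bp of any of its start sites. RNA was not measured in these samples, so which px transcripts the embryos made was not tested.

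**Figure D3:**
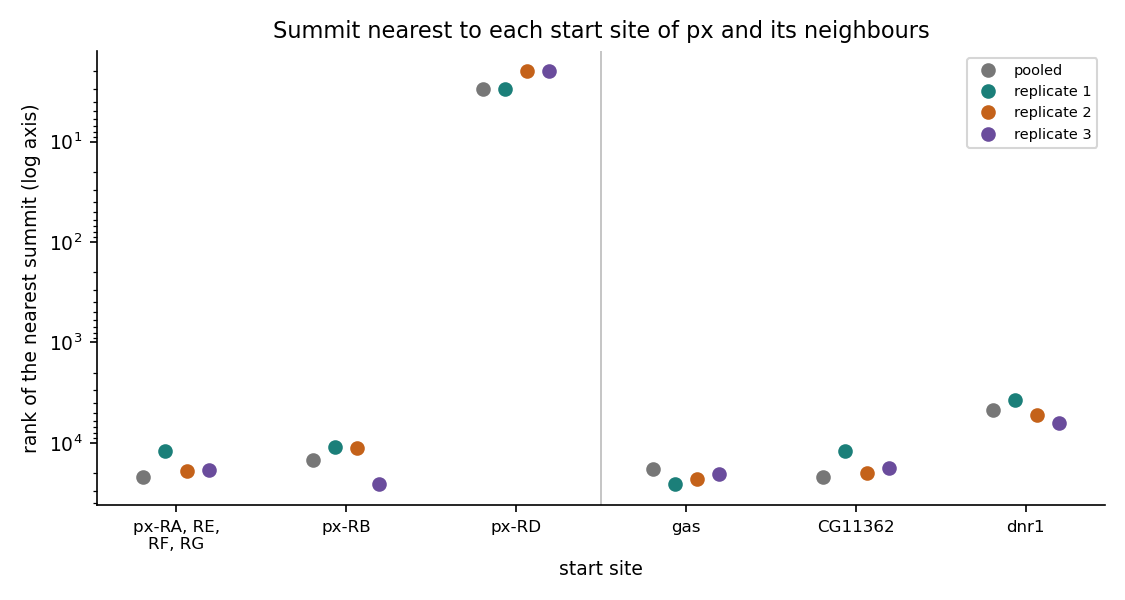
Rank (log axis, strongest at the top) of the summit nearest to each start site of px, left of the grey line, and of its neighbours gas, CG11362 and dnr1, right of it, in the pooled and the replicate lists. The px-RD start has ranks of 2 and 3, and the nearest summits at the other px starts rank from 10923 to 25584.

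All 16 thresholded summits inside px lay in introns of px-RA, and 0 lay in an exon of any px transcript. Exons cover 15.9% of px, and over all genes 760 of the 4792 thresholded summits inside protein-coding genes lay in exons, a share of 15.9% as well. Intron 12, of 35.108 kb, held 8 summits. Intron 3, of 14.24 kb, held 3 and intron 5, of 3.11 kb, also held 3. In intron 5 the summits at 22538135 and 22538336 shared the same peak interval, from 22537961 to 22538566. Over the thresholded list, 346 of 8529 peaks repeated the interval of another. Introns 1 and 2 held 1 each.

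In the pooled list 1 of the 40 summits inside px lay in an exon, the 5′ UTR at the outermost start, and 0 lay in coding sequence. The matching shares over all pooled summits were not counted, so these counts are no trait of px. Intron 12 held 20 of the 40, and 18, 21 and 20 summits in replicates 1, 2 and 3. Intron 3 held 12 in the pooled list and 10 in each replicate. The 8 introns of px-RA with no thresholded summit are 595 bp long or shorter.

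By distance from the starts, 4 thresholded summits lay downstream of the px-RD start, in the first intron of px-RD, 9 lay between the px-RD and px-RB starts, and 3 between px-RB and the outermost start. Within 5 kb of a start there were 5 at px-RD, 3 at px-RB and 2 at the outermost start. Thus 15 of the 16 lay more than 500 bp from any px start and 12 lay more than 2 kb from one. Over the whole thresholded list, 3223 of 8529 summits were promoter summits, so most summits lay away from starts there too. The share beyond 2 kb was not counted for the whole list.

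The 3′ end of px was bare. From 22508188 to the end of the gene at 22494297, 13891 bp held no thresholded or pooled summit, and neither did the 10 kb beyond it, a stretch of 23891 bp in all. In replicates 1, 2 and 3 the bare stretch was 22434, 23890 and 23897 bp long. It covers the last exons of px, the whole of CG4610 and most of CG4554. The jockey transposable element in intron 12, from 22525816 to 22529298, held 0 summits in every list, and how reads of repeated sequence were treated is not given in the sources used here.

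The threshold cut through the weaker px summits. The weakest px summit inside it, at 22548320, had a signal of 266 and ranked 8112. The strongest outside it, at 22524957, had a signal of 203 and ranked 10298, and the lowest signal in the thresholded list was 252. Of the 24 pooled px summits below the threshold, 8 (33.3%) were matched in all 3 replicate lists, where 5416 of all 21471 such summits (25.2%) were. Their median rank was 18358.

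The genes around px had few or weak summits. The only thresholded summit in the flanks was at 22570035, inside dnr1, with rank 4991 and replicate ranks of 2421, 6294 and 9347. The dnr1 gene encodes a negative regulator of the Imd immune pathway. Its own start, at 22592964, had a thresholded summit 315 bp upstream that ranked 4698 in the thresholded list and 3753, 5235 and 6333 in the replicates.

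CG11362 begins 242 bp from the outermost px start, on the other strand, so the weak summits there are near both genes and cannot be assigned to either. The gas gene lies inside intron 3 of px, from 22550094 to 22552113 on the plus strand, and held 0 summits in every list. The summit nearest its start ranked 18054 in the pooled list and 25829, 22896 and 20232 in the replicates. The strongest within 1000 bp ranked 12939 in the pooled list and 8515, 22896 and 14605 in the replicates. CG4610 and CG4554, beyond the 3′ end of px, held 0 summits in every list.

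For its length px held many summits. Its 16 thresholded summits correspond to 236 per Mb (exact 95% Poisson interval 135 to 383, counting error only), against 63.7 per Mb over the 6 arms, a 3.71-fold difference, and 41.8 per Mb over the 307 protein-coding genes of 50 kb or more. In the pooled list px had 590 per Mb, against 224 over the arms, or 2.63-fold. The summits of 1 gene are not independent, which the interval does not cover. The gene was also chosen on these peaks, so the interval is no test of the difference.

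At least 16 thresholded summits were found in 18 of the 13945 genes (0.129%), px among them, and 10 genes had more. The gene with the most was kirre, a cell adhesion gene of myoblast fusion, with 42 over 394149 bp, also named after its values were seen. Among the 307 genes of 50 kb or more, px had 0.236 summits per kb, where the median gene had 0.0267 and the quartiles were 0 and 0.0752. Only shn (0.326) and pnt (0.286) had more, and these were named after their values were seen. They encode a zinc finger factor of BMP signalling and an ETS factor of EGF receptor signalling.

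The count of px summits was similar in the 3 replicates at equal list length. Of the 8529 strongest peaks in replicates 1, 2 and 3, 16, 15 and 13 lay inside px.

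**Figure D4:**
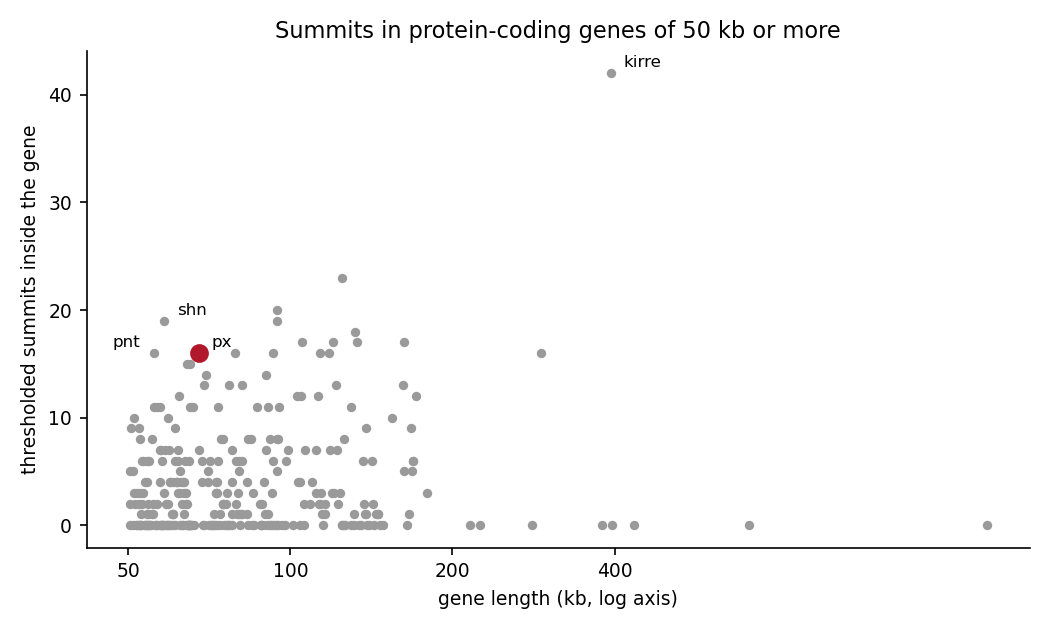
Number of thresholded summits inside each of the 307 protein-coding genes of 50 kb or more against gene length (kb, log axis); each point is a gene, px is red. px holds 16 in 67.769 kb, and shn and pnt hold as many or more in a shorter gene.

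Other genes also had their strongest promoter summit at an internal start. Of the 3728 promoter-bound genes, 629 had their strongest promoter summit nearest a start other than the outermost, and 569 of these were matched in all 3 replicate lists. Such starts lay a median of 1676 bp from the outermost start, and 394 lay over 1000 bp from it. The px-RD start, at 47966 bp, was among 33 over 40 kb away, and 27 lay farther than it did.

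In the order of strongest promoter summits over all genes, px came after Mkp3, at rank 2. The genes that followed were Art3, a protein arginine methyltransferase, and mRpS10, a mitochondrial ribosomal protein, which share a summit at rank 6. After them came CG18549 at rank 7 and Fkbp14 at rank 9. Mkp3 ranked 2, 3 and 9 in replicates 1, 2 and 3 and px ranked 3, 2 and 2, so the order of this pair was not the same in every replicate.

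The genes most like px were taken as those with a matched summit at an internal start and the smallest Euclidean distance to px in log10 rank over the 3 replicate lists. The nearest was Fkbp14, which encodes a peptidyl-prolyl isomerase, at a distance of 1.25. It ranked 13, 10 and 13 in replicates 1, 2 and 3, and its start lies 719 bp from the outermost. CG1888 followed at a distance of 1.5, with ranks of 14, 21 and 15 and a start 1177 bp from the outermost.

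PNPase, a mitochondrial RNA exonuclease, was at a distance of 1.68 and ranked 28, 18 and 19. The Polycomb group gene ph-p was at 2.04 and ranked 24, 31 and 49. The casein kinase gene gish was at 2.13 and ranked 35, 25 and 60, with a start 8437 bp from the outermost. The replicate ranks of px did not overlap those of any of the 5. The gene px was chosen for its rank, so this gap follows in part from the choice. The 5 genes are 3893 to 32317 bp long, so none could hold a start 47966 bp inside it, as px does.

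**Figure D5:**
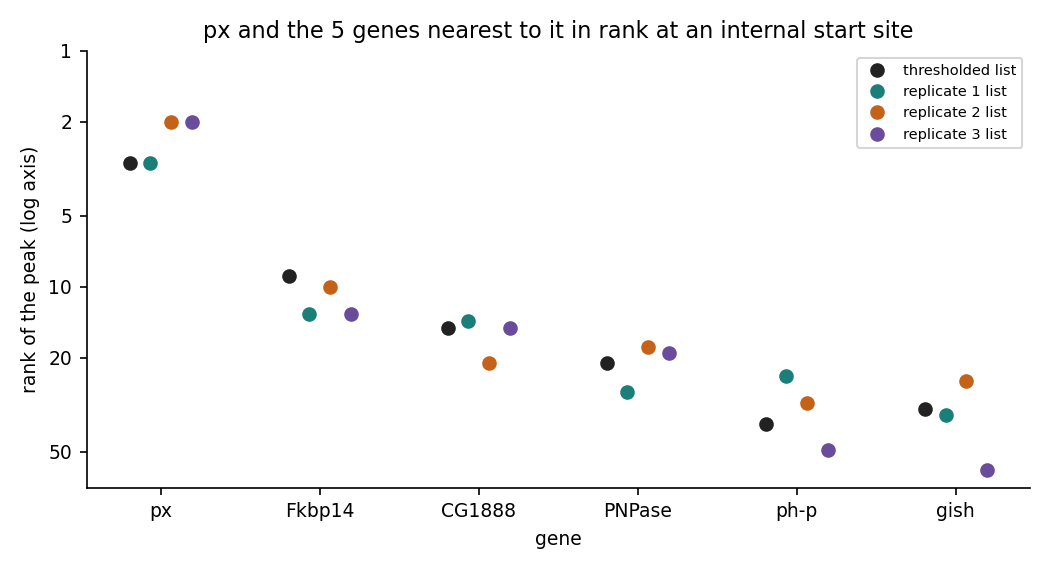
Rank (log axis, strongest at the top) in the thresholded list and in each replicate list of the strongest promoter summit of px and of the 5 genes nearest to it in rank among those bound at an internal start. The px points lie at 2 and 3, above the 9 to 60 of the other genes, and px was chosen for its rank.

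Wing vein patterning, the process px is known for, was described through a list of 40 other genes. The list was chosen with earlier results of these data known. All 40 were found in the annotation, with Dl listed there as Delta. Of the 40, 18 (45.0%, exact 95% interval 29.3 to 61.5) were promoter-bound, against 26.7% of all protein-coding genes. A summit at any start makes a gene promoter-bound, and the number of starts per gene was not compared. Among genes with no other start within 1000 bp, 15 of 31 listed genes (48.4%) were promoter-bound, against 16.2% of all such genes. With the 8529 strongest peaks of each replicate the share was 50%, 45.0% and 32.5% in replicates 1, 2 and 3. The share was read from few genes and turned with the threshold. With the stronger part of the thresholded list alone it was 12.5%, below the 15.3% of all genes.

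The EGF receptor pathway held the strongest of these summits. That of Mkp3 ranked 2, that of aos, a secreted inhibitor of the receptor, ranked 86, and that of spi, its ligand, ranked 218. The summits of rho, a protease that releases the ligand, and of S, which helps to traffic it, ranked 5286 and 6978. Another gene starts within 1000 bp of a start of spi, of S and of the BMP modulator gene cv, so their summits cannot be assigned to them alone. Egfr, the receptor, vn, another ligand, and sty, an inhibitor, had no summit at a start and held 7, 4 and 5 thresholded summits inside the gene, and were named after their values were seen. The whole list was drawn up with earlier results of these data known, among them the strength of Mkp3. Neither Mkp3 nor the shares of the list are therefore independent evidence.

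Of Notch pathway genes, N, the receptor, ranked 3806, Delta, its ligand, 5691 and the target E(spl)mbeta-HLH 6730. Of the BMP modulators, cv ranked 4515, cv-2 ranked 6735 and sog ranked 8142, and the Hedgehog receptor gene ptc ranked 7157 and had no match in replicate 2. The transcription regulators net, ab, bs, emc and caup ranked 2309, 4880, 7251, 8258 and 8475, and the signalling scaffold gene Cka ranked 8440. The median rank of the 18 was 6211, so most of these summits lay in the weaker part of the thresholded list, far below that of px. Other listed genes of these pathways had no thresholded summit within 500 bp of a start. These were H and Su(H) for Notch, dpp, gbb, tkv, sax, Mad and brk for BMP, and hh and smo for Hedgehog. The regulators en, kni, knrl, ara, mirr, salm, salr and vvl, and cv-c, had none there either. Some of these genes held summits inside the gene, and all were named after their values were seen.

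A thresholded summit lay inside 26 of the 40 genes (65.0%), against 15.6% of all genes. The listed genes were also longer, with a median of 13663 bp against 2166 bp, and the part of length in this was not tested. The median wing vein gene held 1.5 thresholded summits, and 0 of them held more than the 16 of px. In 11 genes a summit lay inside without any at a start, and 11 genes had neither. The same counts were not made over all genes.

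The sequence under the px summits was rich in A and T. Within 50 bp on either side of the px-RD summit A and T made up 71.3% of the bases, and at the 16 px summits 57.4% to 82.2%, with a median of 70.8%. The median over all thresholded summits was 70.3%, so the px summits resembled the rest in this. The whole of px holds 55.5% A and T.

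Of 8 short motifs looked for on both strands in the same windows, 0 were found at the px-RD summit. Each of the 8 was also absent from most thresholded summits, and the share lacking all 8 was not counted. The letters CGATA, bound by BEAF-32 and DREF, were found at 3 of the 16 px summits, against 12.9% of all thresholded summits. TATAAA, the TATA box, was at 2 px summits (27.2% of all) and AACAGC was at 2 (5.12% of all). GAGAG, the GAGA factor site, was at 1 (8.29% of all), and the CA repeat CACACA was at 1 (5.76% of all). The E-box CACGTG (0.551% of all), the Zelda site CAGGTA (1.89% of all) and the M1BP core GGTCACA (1.14% of all) were at 0. GGTCACA ends in the letters that begin CACACA, so these motifs can overlap. The absence of a motif from a window says only that these letters are not in it.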

How the data were processed

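Peak lists were analysed from 3 ChIP-seq samples, labelled biological replicates 1 to 3 of 1 group. Nothing else says how they were separated, so SDs measure only the spread between these samples. Per the labels, the authors deposited lists on the dm6 assembly for each replicate, for the pooled replicates and after IDR thresholding. The signal value of each peak was deposited by the authors, with its scale not stated. The −log10 q-value that the authors deposited took a single value over the 8529 thresholded peaks and so ranked none of them. The aligner and the peak caller are not given in the sources used. Read depth is unknown, since no read counts were analysed.

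Positions were compared with Ensembl release 115 and with the RefSeq sequence of the same assembly, on 2L, 2R, 3L, 3R, 4 and X. Coordinates are 1-based. Ranks are by signal within a list. Summits within 100 bp were matched, and a promoter summit lay within 500 bp of a start. Intervals for shares are exact Clopper-Pearson, cover counting error only and are at 95%. Start-site, matching and overlap steps were tested on simulated data. Python 3.11.15, numpy 2.4.6, pandas 2.3.3 and scipy 1.17.1 were used. Named genes were px and genes within 10 kb, the 5 genes most like px at an internal start, the genes next to px in the order of promoter summits, and promoter-bound members of the wing vein list. Outside this rule, kirre, shn, pnt and the members of the wing vein list without a promoter summit were named after their values were seen. The gene, the lists and the motifs were chosen with earlier results of these data known. Alternatives changed the list, the windows and the matching distance, and left out each replicate. No sequence of px is printed.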

Additional observations from a re-analysis of the deposited data

How the results depend on the processing

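Of 68 alternative values, 45 stayed close, within 1.5 times for counts and within the SD of the replicates for ranks, distances, widths and shares, and 23 moved. Some of the 45 could not have moved. Leaving out 1 of the 3 replicates cannot shift a mean rank, distance or width by more than that SD. Merging summits within 200 bp could not act on the thresholded px summits. The count of 45 is therefore no measure of how robust the results are. When only the stronger thresholded peaks were used, the wing vein share stood below that of all genes, and in the other alternatives it stood above. With the pooled list, 40 summits lay inside px, 46 lay in px and its flanks, and 3 px starts had one within 500 bp. With the stronger part of the thresholded list, 10 lay inside px and 10 in px and its flanks. Starts with a summit numbered 0 with a 200 bp window and 3 with a 1000 bp window. Of the 46 pooled summits, 23 were matched in all 3 replicate lists, 13 within 50 bp and 36 by any overlap. By peak width the strongest px peak had a mean rank of 408. The wing vein share, 45.0%, was 32.5% with replicate 3 alone, 90.0% with the pooled list, 12.5% with the stronger part and 35.0% with a 200 bp window. The share of all genes, 26.7%, was 27.9% with replicate 2 alone, 44.7% with the pooled list, 15.3% with the stronger part, 18.3% with a 200 bp window, 30.6% with a 1000 bp window and 16.2% in genes with no other start within 1000 bp, where the wing vein share was 48.4%. Longer lists and wider windows admit more summits by construction. The cause of the other differences was not tested.

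Without each replicate in turn, with a thresholded summit kept when matched in the other lists, 14 to 15 summits lay inside px, 15 to 16 with its flanks and 1 start had one. Of the pooled summits, 26 to 28 were matched. The mean rank of the strongest peak was 2 to 2.5, its distance to the px-RD start 204.5 to 206 bp and its width 552.5 to 568 bp. The wing vein share was 42.5% to 45.0% and that of all genes 24.2% to 25.2%. By construction, the counts of thresholded summits and starts and the shares could only stay or fall here. The number of matched pooled summits could only stay or rise. No paired analysis was possible because the replicates form 1 group. Without read counts, what depth limits could not be measured.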

Other observations

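Several pairs of px summits stood at nearly the same distance from each other. In the pooled list 7 gaps between neighbouring px summits were 250 bp or less, and 6 of these were 190 to 210 bp. In replicates 1, 2 and 3 the same held for 6 of 6, 6 of 6 and 7 of 8 such gaps. The pattern covers the whole list, where 73.1% of pooled gaps of up to 250 bp fell in that range and 0 gaps were below 199 bp. Peaks also shared widths, since 72.9% of pooled peaks were exactly 484 bp wide. The widths of the weaker px peaks and the number of neighbouring px summits are thus partly values that recur over all lists, and the cause was not tested. Merging summits within 200 bp left 39 of the 40 pooled summits inside px, and 32 of 36, 34 of 37 and 34 of 37 in replicates 1, 2 and 3. It could not act on the thresholded px summits, whose closest pairs lay 201 and 204 bp apart.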
